A study of Homo sapiens with 2 samples.

Results

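Windows of 1 Mb that hold 200 or more nascent strand intervals, on chromosomes outside the gene-rich 17, 19 and 22, are described here. The intervals of the 6 deposited timing lists were pooled, with each name counted once, and their midpoints were counted in 1 Mb windows on chromosomes 1 to 16, 18, 20 and 21. Of 2528 windows that held an interval, 112 (4.43%) reached 200, and their 26659 intervals made up 19.8% of the 134408 on these chromosomes and 16.5% of the 161869 in the series. These are called dense windows below, and the remaining 2416 windows, with 107749 intervals, are called other windows. The count of intervals chose the windows, so the windows were selected on a measured value, and count, spacing and covered length are given as descriptions without a test. Gene content was not analysed here, since no annotation of the files' build was used, so the label of these chromosomes as less gene-dense was not checked.

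The data come from U2OS, an established osteosarcoma cell line labelled as wild type, whose cells were held before S phase by 2 rounds of thymidine and collected 2 hours after release. Both libraries belong to this 1 group and share the line, the block and the time, and no label says that they came from separate cultures. They were deposited as 1 intersected set, so no value below has a spread between libraries. Depth is unknown, as the files give no read counts, and each enrichment is the value that the authors deposited for a replicate 1 peak. Positions are in hg19.

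DNA replication in human cells starts at many sites, each of which is used in only part of the cell cycles. Nascent strand sequencing finds them through short new strands whose RNA primer shields them from lambda exonuclease, so an interval marks a stretch where such strands collect in the population. Initiation sites often lie close together in zones, and zones in open, transcribed chromatin tend to replicate early in S phase, whereas sparse regions tend to replicate late. A 1 Mb window usually takes in 1 or more replication domains, which is the scale at which timing is set. No sequence of these windows is shown, because no genome of build hg19 was used here.

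The dense windows lay on all 19 chromosomes, in very unequal numbers. The copies and reads of each chromosome in U2OS were not used here, so their part in these numbers was not tested. Chromosome 1 had 17, chromosome 20 had 13, chromosome 16 had 11 and chromosome 11 had 10. Chromosomes 6, 14 and 18 had 1 each. Dense windows made up 21.3% of the windows of chromosome 20 and held 42.0% of its intervals, and on chromosome 16 they made up 13.6% of the windows with 35.1% of the intervals. Chromosome 4 was otherwise sparse, with a median of 10 intervals in its other windows, yet its 5 dense windows held 27.7% of its intervals. On chromosome 6 the single dense window, from 43 to 44 Mb, held 3.78%. Over all chromosomes, a dense window held a median of 234 intervals (quartiles 216 and 252.25, highest 311), against a median of 23 in the other windows (quartiles 8 and 65.25).

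**Figure D1:**
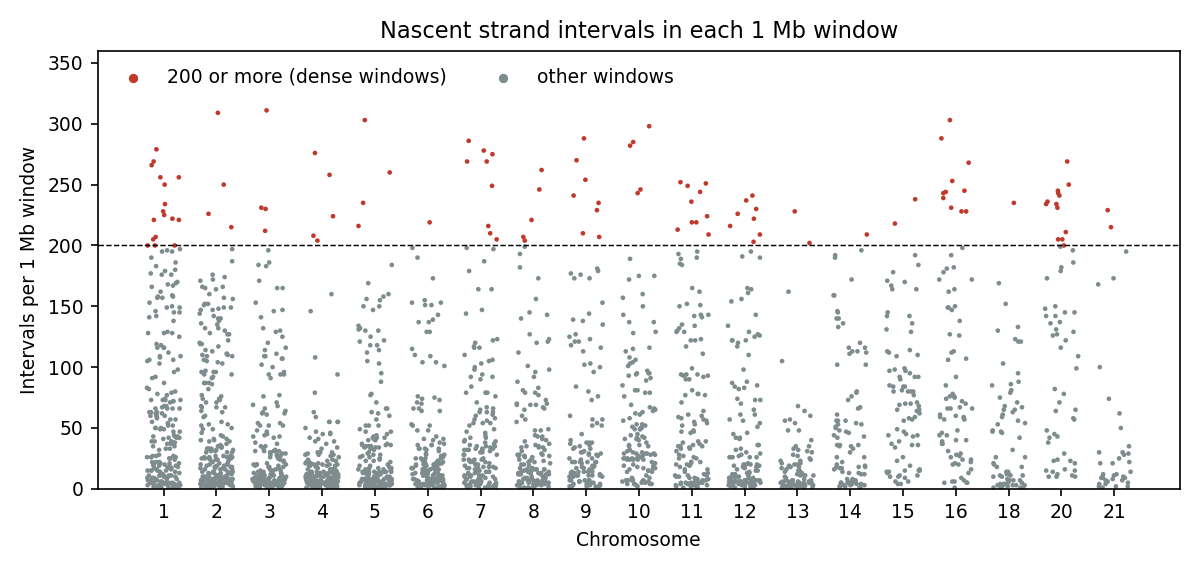
Number of intervals (vertical axis) in each 1 Mb window with at least 1 interval, by chromosome; points are windows, spread sideways for legibility, and the dashed line is the threshold of 200. The 112 dense windows (red) stand above bulks that lie far lower, such as the median of 10 on chromosome 4, and chromosome 20 has the largest share of windows above the line (21.3%).

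The fullest window lay on chromosome 3 from 13 to 14 Mb, with 311 intervals. Chromosome 2 from 121 to 122 Mb followed with 309, and chromosome 16 from 85 to 86 Mb and chromosome 5 from 1 to 2 Mb held 303 each. Chromosome 10 from 80 to 81 Mb held 298. The next were chromosome 16 from 88 to 89 Mb and chromosome 9 from 136 to 137 Mb, both with 288, and chromosome 7 from 1 to 2 Mb with 286. Chromosome 10 added 285 from 134 to 135 Mb and 282 from 73 to 74 Mb. In these 10 windows the very early, early and mid early classes, called the 3 earlier classes below, together made up from 51.5% of the intervals (chromosome 5, 1 to 2 Mb) to 100% (chromosome 10, 73 to 74 Mb). The mid early class was the most frequent in each of them except chromosome 7 from 1 to 2 Mb, where the early class led with 42.7%. The fullest windows of the remaining chromosomes ranged from 279 on chromosome 1 (201 to 202 Mb) to 209 on chromosome 14 (105 to 106 Mb).

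The threshold did not fall in a gap of the counts. There were 19 windows with 200 to 209 intervals and 28 with 190 to 199. Their typical intervals were alike, with a median window width of 736 bp just inside and 685.5 bp just outside, a median window enrichment of 5.05-fold and 4.98-fold, and 91.5% of intervals in the 3 earlier classes on both sides at the median window. Dense windows are therefore the upper part of a continuous range.

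Dense windows often adjoined each other. Of the 112, 70 stood in 26 unbroken runs of 2 or more, and 42 stood alone. The longest run was on chromosome 16 from 84 to 90 Mb, with 6 windows and 1579 intervals. It was followed by chromosome 9 from 136 to 141 Mb with 5 windows and 1248 intervals. Both reach the outer part of the long arm. The third run by number of intervals, on chromosome 7 from 0 to 3 Mb, had 3 windows and 830 intervals and begins at the outer end of the short arm. There were 11 runs of 3 windows in all.

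Within a dense window the intervals were spread over most of its length. The median distance from one interval to the next was 1444 bp at the median window (range 777 to 2360 bp), against 17232 bp in the other windows. Intervals covered a median of 26.0% of the window, from 16.3% on chromosome 7 (98 to 99 Mb) to 53.7% on chromosome 8 (143 to 144 Mb). In the other windows they covered a median of 1.11%. In 67 of the 112 windows each 100 kb stretch held 10 or more intervals, and 2 windows had a 100 kb stretch with none. The longest stretch free of intervals in a dense window had a median of 41.1 kb, and the highest value was 158 kb on chromosome 1 from 3 to 4 Mb, a window that held 256 intervals elsewhere. The fullest 100 kb of a dense window held a median of 34 intervals, with a range of 27 to 45. Spacing and covered length depend on the count that chose the windows, and also on interval width: the window on chromosome 8 held 246 intervals, fewer than the 311 of chromosome 3 from 13 to 14 Mb, which covered 34.2%.

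Intervals in dense windows were wider and more enriched than those in the other windows of the same chromosome, on every chromosome. The rule did not use either measure, but width, enrichment and number come from the same peak calls, and the numbers of reads and copies of each region in U2OS were not used here, so their part in these differences was not tested. Chromosome medians of width averaged 834 ± 139 bp in dense windows and 483 ± 44.6 bp in the others (mean ± SD, n = 19 chromosomes), a ratio of 1.72. Dense windows were wider on 19 of 19 (two-sided permutation test that flips signs over chromosomes, adjusted p = 4.0e-05). The lowest median in dense windows, 725.5 bp on chromosome 3, lay above the highest in other windows, 556 bp on chromosome 11, so the chromosome medians did not overlap. On chromosome 14, with its 1 dense window of 209 intervals, the medians were 1282 and 520 bp, the largest ratio. On chromosome 15 they were 730.5 and 538 bp, the smallest. Pooled over chromosomes, the middle 50% of widths ran from 413 to 1514 bp in dense windows and from 268 to 904 bp elsewhere, so single intervals overlapped widely.

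The median fold enrichment was 5.31 ± 0.22 in dense windows and 4.54 ± 0.11 in the others (n = 19 chromosomes), a ratio of 1.17. It was higher on 19 of 19 chromosomes (permutation test, adjusted p = 4.0e-05), from 5.12 against 4.67 on chromosome 1 to 5.91 against 4.55 on chromosome 14. The −log10 q of the replicate 1 peak, the strength of the call, was 6.76 ± 0.71 against 4.74 ± 0.23 and was higher on 19 of 19 (adjusted p = 4.0e-05 in the permutation test). Every one of the 112 dense windows had a median width and a median enrichment above the median of the other windows, which were 395 bp and 4.35-fold. This was not particular to dense windows. The upper quartiles of the other windows were 507 bp and 4.72-fold, and the 28 windows with 190 to 199 intervals had 685.5 bp and 4.98-fold at the median window. The test takes chromosomes as its units, which measures how regularly a difference recurs along 1 genome in 1 peak set and not how it varies between cultures. Planned comparisons numbered 8, and their p-values were adjusted together by the Benjamini-Hochberg method.

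**Figure D2:**
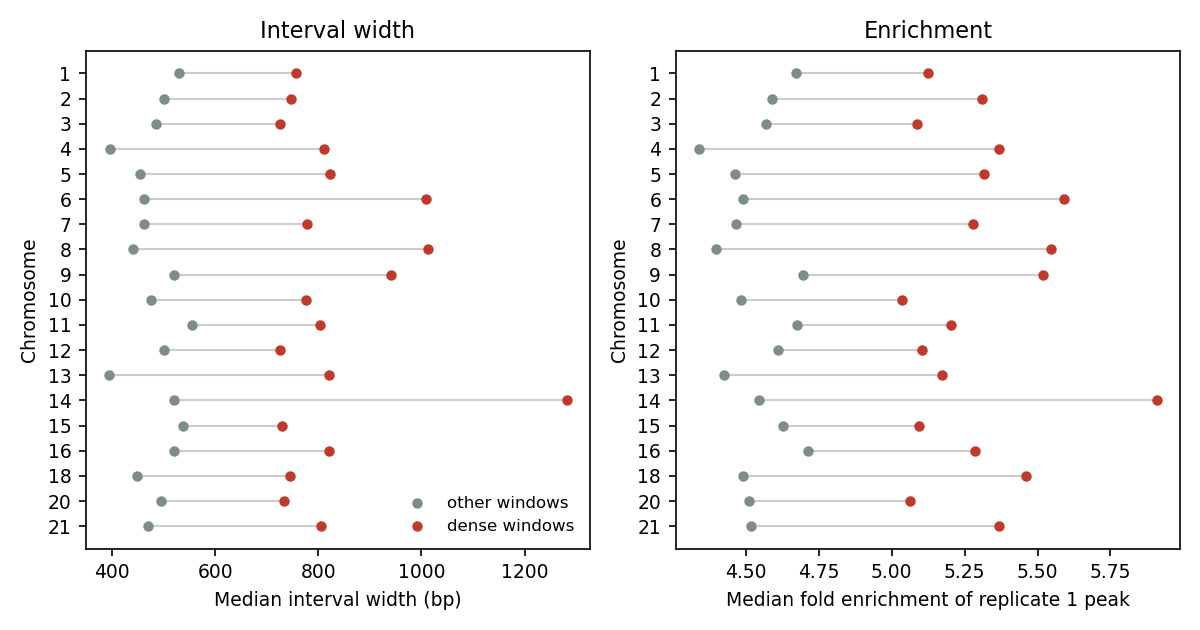
Median interval width in bp (left) and median fold enrichment of the replicate 1 peak (right) on each of 19 chromosomes, for dense windows (red) and other windows (grey), joined by a line. The axes do not start at 0. Red lies right of grey on every chromosome in both panels, and chromosome 14, with 1 dense window, has the widest gap in both (1282 against 520 bp and 5.91 against 4.55).

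The difference in width was also measured within quartiles of call strength, and that in enrichment within quartiles of width. These quartiles match only coarsely, as the widest ran from 1011 to 32112 bp and the strongest from a −log10 q of 9.07 to 2068. The part of width or call strength left within a quartile was not tested. Within quartiles of −log10 q, the width ratio averaged 0.55 on the log2 scale and was above 0 on 19 of 19 chromosomes (permutation test, adjusted p = 2.0e-05), against 0.78 without quartiles. In the quartile of weakest calls the pooled median width was 414 bp in dense and 342 bp in other windows, and in the quartile of strongest calls 1338.5 and 844.5 bp. Within quartiles of width, the difference in enrichment was 0.097 on the log2 scale, against 0.22 without quartiles, and was again above 0 on 19 of 19 (adjusted p = 2.0e-05, permutation test). Here the pooled medians were 4.14-fold against 4.03-fold for the narrowest intervals and 6.39-fold against 5.87-fold for the widest. These 2 comparisons were added after the data were examined and adjusted among themselves.

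Very wide and very strong intervals were both more frequent in dense windows. Intervals of 3 kb or more made up 8.19 ± 3.40% of dense and 2.23 ± 1.05% of other windows' intervals (mean ± SD, n = 19 chromosomes), a difference of 5.95 percentage points that was positive on 19 of 19 (permutation test, adjusted p = 4.0e-05). In all, 2103 such intervals held 30.7% of the interval bases of dense windows, against 14.7% elsewhere. Single windows ranged from 0.372% on chromosome 1 from 18 to 19 Mb, which held 269 intervals, to 25.2% on chromosome 8 from 143 to 144 Mb. Intervals of 20-fold or higher enrichment made up 1.49 ± 0.86% against 0.688 ± 0.13%, higher on 16 of 19 chromosomes (permutation test, adjusted p = 1.8e-04). They were spread thinly, with a median of 3 in a dense window, 13 at most on chromosome 8 from 144 to 145 Mb, and none in 10 windows. Both shares were compared after the data were examined and adjusted among themselves. Without the outer 5 Mb at both ends the second difference was 0.29 points, against 0.80 with them, and still passed (15 chromosomes, adjusted p = 0.0353, permutation test). With a threshold of 250 intervals it was 0.34 points on 12 chromosomes and did not pass the test (adjusted p = 0.115, permutation test).

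The 3 most enriched intervals in dense windows were chr18:77671028-77673349 at 234-fold (mid late), chr20:62465674-62469444 at 144-fold (early) and chr21:46706713-46708623 at 115-fold (very early). All 3 stand in the outermost 5 windows of a long arm. The 3 widest were chr8:144946447-144967286 (20840 bp, mid late), chr9:139900903-139920040 (19138 bp, early) and chr1:2594883-2612174 (17292 bp, mid late). Their enrichments were 12.1, 12.3 and 4.81-fold, so these 3 intervals were far below the 3 most enriched ones. The replicate 1 peaks in them were cut into 7, 11 and 13 pieces by the intersection with replicate 2.

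The leading intervals of the 10 fullest windows were well below the 3 most enriched intervals. In the window with 311 intervals on chromosome 3 the leader was chr3:13580303-13580834, at 37.5-fold and mid early. In the window with 309 on chromosome 2 it was chr2:121498576-121499230, at 44.7-fold and early. The highest of the 10 leaders was chr5:1925698-1927185, at 61.7-fold and late, and the lowest chr16:85749849-85750315, at 22.3-fold and mid early. Between them stood chr16:88047587-88050289 at 57.2-fold (mid early) and chr7:1299442-1301943 at 51.8-fold (early), both over 2 kb wide. The other 4 were chr10:80499803-80500199 at 24.3-fold, chr9:136293950-136294502 at 35.9-fold, chr10:134564357-134566734 at 39.6-fold and chr10:73724488-73725369 at 34.3-fold. They belong to 3 timing classes, with both intervals at 80 and 134 Mb of chromosome 10 mid late, that of chromosome 9 mid early and that at 73 Mb early.

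In dense windows more intervals lay on replicate 1 peaks that the intersection had cut into pieces. Intervals were also wider there, and this share was not compared within quartiles of width. A peak in 2 or more pieces lay under 24.2 ± 4.14% of intervals in dense windows and under 11.5 ± 2.49% elsewhere (n = 19 chromosomes), higher on 19 of 19 (permutation test, adjusted p = 4.0e-05). The share of an interval's bases that both libraries' peaks covered was 60.2 ± 3.22% against 59.6 ± 1.09%, higher on 11 of 19 chromosomes, which did not pass the test (difference 0.61 points with an SD of 2.97 over chromosomes, adjusted p = 0.386, permutation test). Its direction turned in several settings. Among intervals of at least 200 bp the difference was 2.59 points and passed (adjusted p = 0.00304, permutation test). From gaps in the numbering of replicate 1 peaks, a median of 79.9% of those numbered within a dense window were retained (range 66.6% to 89.4%), against 68.7% in the other windows. Retained peaks are what the window count is made of, so this was not tested.

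Dense windows held few intervals labelled late or very late. The late and very late classes made up 2.70 ± 3.58% of the intervals in dense windows and 10.6 ± 4.14% in the others (mean ± SD, n = 19 chromosomes). The difference was −7.95 percentage points and was below 0 on 17 of 19 (permutation test, adjusted p = 4.8e-05). In dense windows the share itself was 0% on chromosomes 6, 7, 14, 15, 18 and 21. Chromosomes 1 and 2 were the exceptions, with 5.76% against 5.56% and 9.30% against 8.15%. Of the 112 dense windows, 20 held any late or very late interval, and 16 of these 20 stood in the first 5 or last 5 windows of a chromosome. Against other windows that directly adjoin a dense one, the difference was −3.04 points and did not pass the test (adjusted p = 0.168, permutation test). All cells were collected 2 hours after release. The part of this time point in the class shares and in the counts that chose the windows was not tested.

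Pooled shares of the single classes are given as a description and were not tested. The mid early class held 38.1% of the intervals in dense windows and 28.01% elsewhere, while the very early class held 11.5% and 13.9%, the early class 23.8% and 24.7%, and the mid late class 23.5% in both. The late class held 2.67% and 6.89%, and the very late class 0.375% and 2.97%. Dense windows took in 25.2% of all mid early intervals of these chromosomes, 16.99% of the very early, 8.75% of the late and 3.03% of the very late ones. By chromosome, the very early share was 10.2 ± 9.39% against 12.97 ± 4.06% (lower on 13 of 19, adjusted p = 0.25, permutation test). Without chromosome 7, which holds the dense window with the largest very early share, this difference passed narrowly (−4.16 points, adjusted p = 0.0499, permutation test). It turned and passed the other way with every line of the lists counted (10.2 points, adjusted p = 0.0113) and as the median of window values (7.22 points, adjusted p = 8.0e-05, permutation tests), so the very early share has no settled direction here. The share of the 3 earlier classes together was 71.7 ± 16.3% against 64.4 ± 8.79%, higher on 13 of 19, which also missed the threshold (permutation test, adjusted p = 0.0741). Without chromosome 14 or without chromosome 18, each with 1 dense window, this last difference passed (8.90 points, adjusted p = 0.0247, and 8.58 points, adjusted p = 0.0375, permutation tests). It also passed at a threshold of 150 (13.5 points), with every line counted (16.2 points) and as the median of window values (35.4 points). At a threshold of 250 it was −1.89 points and did not pass. Against only those other windows that held 50 or more intervals, it was 2.11 points and higher on 8 of 19 chromosomes. That too did not pass (adjusted p = 0.579, permutation test). Nor did it pass with windows shifted along the chromosome (6.44 points) or at a −log10 q of at least 5 (4.80 points).

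Dense windows differed widely among themselves in timing. The mid early class was the most frequent in 48 of the 112 windows, the early and the mid late class in 27 each, the very early class in 9 and the late class in 1. No dense window was made up to 95% or more of 1 class. The timing class changed a median of 14 times along a dense window and 5 times along one of the other windows. More intervals leave room for more changes, so this number depends on the count that chose the windows. In 30 windows all intervals were in the 3 earlier classes. The most uniform was chromosome 7 from 100 to 101 Mb, with 85.5% of its 269 intervals very early. Its neighbour from 101 to 102 Mb was 71.6% very early with 278, and chromosome 20 from 48 to 49 Mb was 84.0% with 243. At the other extreme, chromosome 12 from 131 to 132 Mb had 1.77% of its 226 intervals in the 3 earlier classes and 48.7% in the late and very late ones. Chromosome 1 from 3 to 4 Mb had 9.77% of 256, and its neighbour from 2 to 3 Mb had 50% of 266 in the late and very late classes. The window in which the late class led was chromosome 8 from 143 to 144 Mb, also the one with the most covered bases.

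Timing differed between dense windows at chromosome ends and those further in. Of the 112 dense windows, 44 were among the first 5 or last 5 windows of a chromosome, 18 on short arms and 26 on long arms, and 68 lay further in. Dense windows were 25.9% of the 170 end windows and 2.88% of the 2358 inner ones. The inner dense windows had 85.1% of their intervals in the 3 earlier classes and the end ones 56.0%. On the 12 chromosomes that had both kinds, the share was 51.3 ± 18.8% at the ends and 86.7 ± 11.8% inside, a difference of −35.4 points that was below 0 on 12 of 12 (two-sided permutation test with flipped signs, adjusted p = 0.00141 over 3 comparisons). The gap was widest on chromosome 12, with 36.9% at the ends and 99.9% inside, and narrowest on chromosome 16, with 74.1% and 78.6%. Of the 30 windows made up entirely of the 3 earlier classes, 29 lay inside. Under 50% of intervals were in these classes in 16 end windows and in 6 inner ones, the lowest inner value being 23.1% on chromosome 1 from 30 to 31 Mb.

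**Figure D3:**
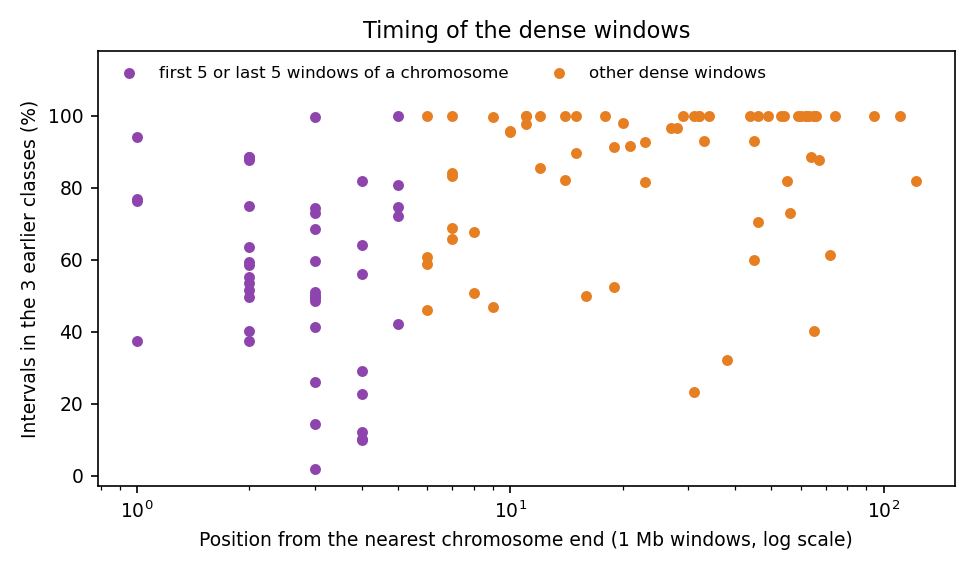
Share of a dense window's intervals in the 3 earlier timing classes (vertical axis, percent) against its position from the nearest chromosome end in 1 Mb windows, where 1 is the outermost window with an interval (log axis; for chromosomes 13, 14, 15 and 21 the long-arm end). Each point is 1 of the 112 dense windows; the 44 end windows (purple) range from 1.77% to 100% with a median of 55.5%, and the 68 inner ones (orange) have a median of 96.1%.

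Later timing at the ends was not particular to dense windows. In the other windows 43.4% of intervals were in the 3 earlier classes at the ends and 69.2% inside, and whether the gap differs between dense and other windows was not tested. Set against other windows in the same setting, inner dense windows were earlier. With the outer 5 Mb at both ends left out, 89.6% of dense-window intervals were in the 3 earlier classes against 68.0%, higher on 15 of 15 chromosomes (permutation test, adjusted p = 1.07e-04). At the ends alone the shares were 52.6% and 43.4%, higher on 10 of 16 chromosomes, which missed the threshold (adjusted p = 0.111, permutation test).

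End windows also had wider and stronger intervals than inner dense windows. Median width was 952 ± 146 bp at the ends and 733 ± 43.9 bp inside (n = 12 chromosomes), wider on 10 of 12 (permutation test, adjusted p = 0.00204). Median enrichment was 5.63 ± 0.26-fold and 5.04 ± 0.14-fold, higher on 11 of 12 (permutation test, adjusted p = 0.00151). The windows with the widest typical interval were chromosome 9 from 139 to 140 Mb (1415 bp), chromosome 8 from 143 to 144 Mb (1348.5 bp) and chromosome 14 from 105 to 106 Mb (1282 bp), all at long-arm ends. The narrowest were chromosome 20 from 49 to 50 Mb (513 bp) and chromosome 7 from 98 to 99 Mb (554 bp), both inside. Very early was their most frequent class, with 50% and 52.3% of intervals. It held 18.5% in the next narrowest, chromosome 20 from 30 to 31 Mb (567 bp). These 3 comparisons of ends with the interior were added after the data were examined. Both settings kept the contrast with other windows. Inside, dense windows had 745 bp against 480 bp, and at the ends 942 bp against 593 bp, wider on 15 of 15 and 16 of 16 chromosomes (permutation tests, adjusted p = 1.07e-04 and 1.0e-04).

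Within 1 timing class the contrast held too. Very early intervals were 696 ± 132 bp wide in dense windows and 477 ± 48.4 bp elsewhere, a ratio of 1.44 that was above 1 on 15 of 15 chromosomes with at least 20 such intervals on each side (permutation test, adjusted p = 2.4e-04). Early intervals had a ratio of 1.40 (18 of 18, adjusted p = 1.0e-05, permutation test) and mid early ones 1.71 (19 of 19, adjusted p = 2.0e-05, permutation test). Mid late intervals were 947 ± 222 bp and 465 ± 40.2 bp wide, a ratio of 2.00 (17 of 17, permutation test, adjusted p = 6.0e-05). Late intervals had a ratio of 2.06 on 9 of 9 chromosomes (exact permutation test, adjusted p = 0.00391, the smallest that 9 chromosomes allow). Enrichment ratios ran from 1.10 in the very early to 1.23 in the mid late class, above 1 on 14 of 15 and 17 of 17 chromosomes. Whether the ratio differs between classes was not tested. Very late intervals numbered only 100 in dense windows and were not compared.

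**Figure D4:**
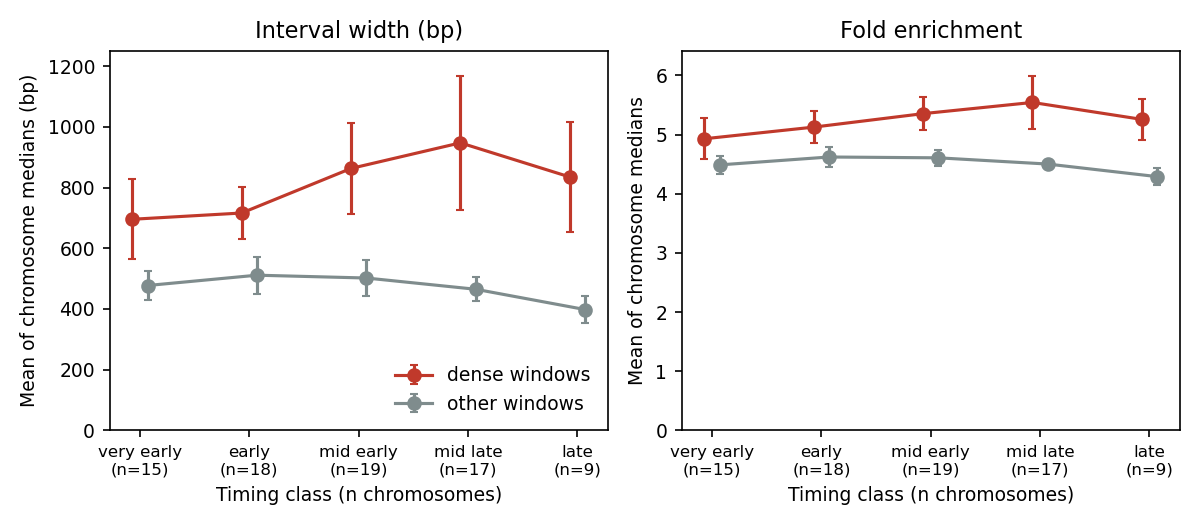
Mean over chromosomes of the median interval width (left, bp) and median fold enrichment (right) in 5 timing classes, for dense windows (red) and other windows (grey); bars are the SD over the chromosomes counted under each class. The dense windows lie above the others in all 5 classes, and the means are farthest apart in the mid late class (947 and 465 bp, 5.54-fold and 4.50-fold).

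The dense windows were set beside the 50 windows of 200 or more on chromosomes 17, 19 and 22, which are known as gene-rich. Those windows held 12040 intervals and at most 295 in a window, below the 311 reached on chromosome 3. Median width was 793 bp in the dense windows described here and 785 bp on chromosomes 17, 19 and 22, and median enrichment was 5.23-fold and 5.30-fold. Intervals of 3 kb or more made up 7.89% and 7.67%, and 23.8% and 23.2% of intervals lay on peaks in 2 or more pieces. The 3 earlier classes held 73.4% and 85.9%. These values are pooled over intervals, and the differences were not tested.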

How the data were processed

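Positions and timing classes came from the 6 deposited interval lists, whose score column holds a constant and was not used. Peak values came from the deposited broad peak list: the fold enrichment (a ratio to a background not given in the sources used here) and the −log10 q, both made by the authors and given once per replicate 1 peak. BWA, MACS2 and hg19 are named, without versions, in the submitters' processing notes. A name on 2 lines was taken as 1 interval. Peak values were given to an interval from the replicate 1 peak with the largest overlap (minimum 1 bp), which 25 intervals in dense windows lacked.

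For each chromosome, the median (or share) in dense windows was set against that in other windows. The mean log2 ratio, or difference in percentage points, was tested by sign flips over chromosomes with 100000 resamples (all flips below 10 chromosomes). The test was also run on widths shuffled over all intervals. Shuffling removes any likeness between neighbouring intervals, so that run cannot show how the test behaves on the real layout. The windows, measures and named items were chosen with earlier results of these data known. Named windows were the 10 fullest, the fullest of each chromosome, the longest runs and the extremes in timing; the named intervals were the most enriched and the widest. Planned comparisons of GC content and gene starts were not run, for lack of a genome of build hg19. Python 3.11.15, numpy 2.4.6 and pandas 2.3.3 were used.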

Additional observations from a re-analysis of the deposited data

How the results depend on the processing

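Libraries cannot be left out, since both are merged in the deposited lists. No paired analysis was possible because the files hold 1 intersected set and no column per replicate. Read depth is unknown. Width, enrichment, −log10 q and the share of intervals on cut peaks kept their direction and passed in every alternative run. So did the share of intervals of 3 kb or more and the 3 comparisons of end with inner windows. Log2 ratios were 0.42 to 1.08 for width, 0.097 to 0.30 for enrichment and 0.26 to 0.66 for −log10 q. For width the main value was 0.78, and it was 0.63 against other windows of 50 or more intervals. Differences were 7.03 to 18.3 points for intervals on cut peaks and 2.79 to 7.85 points for those of 3 kb or more.

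Timing shares moved most. The difference in the 3 earlier classes was 13.5 points with a threshold of 150, −1.89 with 250 (12 chromosomes), 16.2 with every line counted, 21.6 without the first and last 5 Mb and 35.4 as the median of window values. It passed in all of these but the threshold of 250. In 7 of 12 alternative settings, not counting the removal of single chromosomes, it kept its direction and did not pass. Among these was the comparison with other windows of 50 or more intervals (2.11 points, adjusted p = 0.579, permutation test). The very early difference turned to 0.55 points at 150, 10.2 with every line counted, 4.24 without the ends and 7.22 as the median of window values. Of these, 10.2 and 7.22 passed (permutation tests, adjusted p = 0.0113 and 8.0e-05). Counting lines gave 187 windows, the 112 among them, because the very early list repeats most names. The late and very late difference no longer passed as the median of window values (−2.37) or against adjoining windows (−3.04). The share of 20-fold intervals no longer passed at 250 (0.34). The share of bases in both libraries' peaks turned to −0.096 on a shifted grid, −1.46 at a −log10 q of at least 5 and −0.48 with peaks covering at least 50% of the interval, and passed at 2.59 for intervals of at least 200 bp.

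Leaving out each chromosome in turn gave 0.75 to 0.80 for width, 0.22 to 0.23 for enrichment and 0.48 to 0.52 for −log10 q (log2). In percentage points it gave 12.2 to 13.1 for cut peaks, −8.46 to −7.53 for the late and very late classes, 5.52 to 8.90 for the 3 earlier classes, −4.16 to −1.97 for the very early class and 0.27 to 0.91 for shared bases. The very early difference passed without chromosome 7 (−4.16, permutation test, adjusted p = 0.0499).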
